A study of Mus musculus with 6 samples.

Results

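The proteasome subunit genes were described here as all rows of a mouse bone marrow count table whose symbol starts with Psma, Psmb, Psmc, Psmd, Psme, Psmf or Psmg followed by a digit. This choice used symbols and no measured values, though earlier results of these data were known when it was made. It gave 53 of the 33924 listed genes, of which 49 passed the filter on low counts that left 15708 genes to be tested. RNA was sequenced from bone marrow of 3 samples labelled Stag2KO and 3 labelled Stag2WT, after cells with mature lineage markers had been taken out with antibody-coated magnetic beads. Stag2 codes for part of cohesin, which encircles DNA and organises chromosome loops. RNA was isolated with TRIzol. The sources used here do not give strain, age, sex, the allele, how it was deleted or the animal behind each sample. The p-values therefore measure the spread between these samples, which may be technical. The whole population left after depletion was sequenced in bulk, so fewer cells of a type and less RNA per cell cannot be told apart.

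The proteasome is the protease that breaks down proteins tagged with ubiquitin. Its core particle is a barrel in which outer rings of alpha subunits gate the entry and inner rings of beta subunits carry the catalytic sites. A regulatory particle caps the barrel, with a base of ATPases that unfold and thread substrates and non-ATPase subunits that bind ubiquitin and cut it off. In immune cells and under interferon gamma, the catalytic subunits encoded by Psmb5, Psmb6 and Psmb7 are replaced: Psmb8 takes the place of Psmb5, Psmb9 that of Psmb6 and Psmb10 that of Psmb7. The resulting immunoproteasome favours peptides that suit MHC class I molecules. Blood progenitors rely on protein degradation during the cell cycle and, in the red cell lineage, for remodelling of the cytoplasm as cells mature.

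The 53 genes comprised 8 alpha ring genes, 7 standard beta ring genes, 4 immunoproteasome or thymoproteasome beta genes, 6 base ATPase genes, 11 non-ATPase regulatory genes, 5 activator or inhibitor genes, 7 assembly chaperone genes and 5 that belong to none of these classes. The 5 were Psmc3ip, whose product acts in meiotic recombination and only shares the symbol's start, and the pseudogenes Psmb5-ps, Psmb6-ps, Psmb7-ps2 and Psme2b-ps. Of the 53 genes, Psmb11, Psmb5-ps, Psmb6-ps and Psmb7-ps2 held at most 5 reads in any library and were not tested. Psmb11, the beta subunit of thymic epithelium, had 3, 3 and 1 reads in Stag2KO and 1, 0 and 0 reads in Stag2WT. In the annotation of the mouse genome build GRCm38 the 48 genes of the 7 classes lie on 16 chromosomes, with Psmb8 and Psmb9 close together on chromosome 17, where Psmb9 neighbours Tap1 and Psmb8 lies between Tap1 and Tap2.

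Gene reads per library ranged from 29435651 to 37722325. Stag2 itself stood at 169, 187 and 183 CPM in the Stag2KO libraries and 338, 329 and 324 CPM in the Stag2WT libraries (log2 fold change -0.88, SE 0.06, adjusted p = 0.000278), where CPM are counts scaled to equal library totals with TMM factors, and every Stag2KO library was below every Stag2WT library. Values are listed in order of replicate number, and an adjusted p comes from edgeR's quasi-likelihood test with Benjamini-Hochberg adjustment over the tested genes. The share of reads that fell in no gene was 11.7% ± 0.984 in Stag2KO, against 9.24% ± 0.725 in Stag2WT (SD, n = 3 each), and its part in the results was not tested. The depleted marrow carried the progenitor genes Kit (244 ± 19.5 CPM in Stag2KO and 236 ± 15.8 CPM in Stag2WT) and Mpo (7611 ± 495 CPM in Stag2KO and 5093 ± 559 CPM in Stag2WT). Markers of mature cells were present at unlike levels. The T cell gene Cd3e averaged 1.04 ± 0.259 CPM in Stag2KO marrow and 3.19 ± 0.917 CPM in Stag2WT marrow, and Cd4 averaged 23.2 ± 15.8 CPM and 31.1 ± 14.0 CPM. The B cell gene Cd79b averaged 32.8 ± 2.44 CPM in Stag2KO and 62.3 ± 10.6 CPM in Stag2WT. The macrophage gene Mrc1 averaged 11.3 ± 3.50 CPM in Stag2KO and 117 ± 13.0 CPM in Stag2WT (SD, n = 3 each throughout).

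Short stretches of promoter were drawn from RefSeq windows on build GRCm38.p6, which reach from 250 bases before to 50 bases after a start site and matched 42 of the 53 genes. Psmb5, Psmb6 and Psmd9 are shown from the 6 genes of the 7 classes whose windows hold TGACNNNGC. This is the core of the antioxidant response element, the motif through which the factor encoded by Nfe2l1 acts on proteasome genes. Psmc6, Psmd12 and Psme4 also hold it and are not shown. Psmb8 is shown because its window holds TTCNNNGAA, the form of the interferon gamma activated site. Each stretch is written 5′ to 3′ on the gene's strand and ends before the start site, with the motif in capitals; the Psmb5 gene lies on the minus strand and the other genes on the plus strand.
Psmb5 (chr14:54618009-54618067): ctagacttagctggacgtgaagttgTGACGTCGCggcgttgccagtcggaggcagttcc
Psmb6 (chr11:70525323-70525356): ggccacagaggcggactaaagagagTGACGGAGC
Psmd9 (chr5:123228134-123228189): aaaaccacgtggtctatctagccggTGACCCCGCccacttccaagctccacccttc
Psmb8 (chr17:34198073-34198131): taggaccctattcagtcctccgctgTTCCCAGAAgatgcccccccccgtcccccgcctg

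Both strands were searched, and TGACNNNGC occurred in 4 of the 25 alpha ring, beta ring, base ATPase and non-ATPase genes with a window (Psmb5, Psmb6, Psmc6 and Psmd12), against 14.0% of all 27025 genes with a window. The variant TGAGNNNGC occurred in 10 of these 25 genes, 4 of the 7 alpha ring genes with a window among them, and in 19.8% of all genes. Among the 4 immunoproteasome and thymoproteasome genes, TTCNNNGAA occurred in the window of Psmb8 alone. Of the 40 genes of the 7 classes with a window 3 held it (Psmb8, Psmd2 and Psmg1), against 9.55% of all genes. The core of the interferon-stimulated response element was searched as well. It occurred in 0 of the 4 immunoproteasome and thymoproteasome genes. Of the 40 genes 5 held that core (Psmb3, Psmd4, Psmd9, Psme1 and Psmg4), against 3.99% of all genes. Further motifs that were searched are not given here. Of the 13 called genes with a window, Psmc3ip included, 2 held TGACNNNGC (Psmb6 and Psmd9) and 5 held TGAGNNNGC. Of the 28 genes with a window that were tested and not called, 4 held TGACNNNGC and 8 held TGAGNNNGC. A match describes letters in the window only.

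Of the 32 tested genes of the standard proteasome 14 fell in Stag2KO marrow, by small amounts, and 18 were not called. All 32 tested alpha ring, beta ring, base ATPase and non-ATPase genes had a log2 fold change below 0, against 49.3% of all tested genes, with a median log2 fold change of -0.23 against 0.01 over all tested genes. The 14 falls and 0 rises were counted at an adjusted p under 0.05 by edgeR's quasi-likelihood test, where 10.5% of all tested genes fell and 10.7% rose. Psmc5, a base ATPase gene, had the smallest adjusted p (log2 fold change -0.36, adjusted p = 0.0101). None of the 3 tested immunoproteasome genes was called, and their log2 fold changes ran from -0.06 to 0.17.

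Over all 49 tested genes, 16 fell, 0 rose and 33 were not called, and 47 had a log2 fold change below 0. The 2 groups of libraries did not overlap for 36 of the 49, against 43.5% of all tested genes. All Stag2KO values lay below all Stag2WT values for 35 of them, against 21.2% of all tested genes, and above them for Psmb10 alone, against 22.2%. The standard errors of the 49 log2 fold changes had a median of 0.08, and at an unadjusted p under 0.05 the test passed 34 of the 49. The share of all tested genes at that unadjusted threshold was not computed. It is at least the 21.2% called in either direction at an adjusted p under 0.05. This limit holds for the unadjusted counts of single classes and lists below as well. The count of 16 falls dropped to 2 without Stag2KO replicate 1 (Psmb4 and Psmc5), 3 without Stag2KO replicate 2 (Psmc5, Psmd6 and a gained Psmb5) and 1 without Stag2KO replicate 3 (Psmc5). It dropped to 10 without Stag2WT replicate 1, 5 without Stag2WT replicate 2 (Psmb4, Psmc2, Psmc5, Psmd6 and Psmd9) and 11 without Stag2WT replicate 3, each from a smaller design. Calls over all genes dropped too, from 1647 falls among 15708 genes with all libraries. Without Stag2KO replicates 1, 2 and 3 there were 983 of 16028, 902 of 15960 and 1005 of 15993. Without Stag2WT replicates 1, 2 and 3 there were 1228 of 16018, 1027 of 16066 and 1311 of 16031. In each of these 6 fits all 32 standard genes had a log2 fold change below 0.

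**Figure D1:**
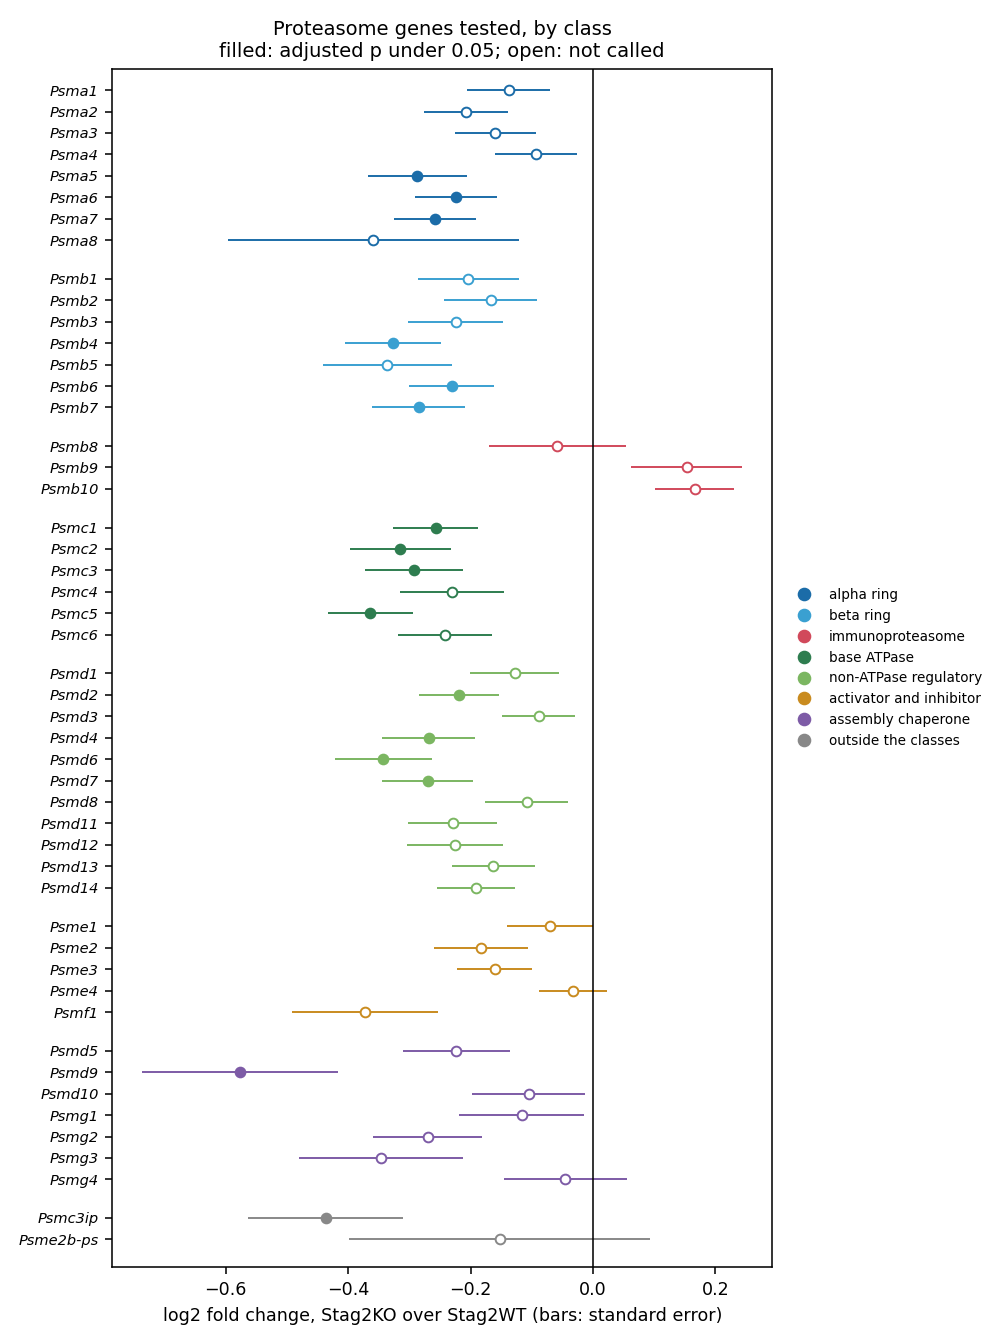
Log2 fold change of Stag2KO over Stag2WT for the 49 tested genes, grouped by class, with bars for the standard error; filled points passed an adjusted p of 0.05 and open points did not. Only Psmb9 and Psmb10 lie right of 0, and Psmd9 lies farthest left at -0.58.

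The alpha ring genes encode the gate of the barrel. Psma7 measured 165, 171 and 173 CPM in the Stag2KO libraries and 192, 218 and 199 CPM in the Stag2WT libraries and fell (log2 fold change -0.26, SE 0.07, adjusted p = 0.0291). The highest Stag2KO library was below the lowest Stag2WT library. Psma5 measured 77.5, 70.0 and 71.0 CPM in the Stag2KO libraries and 82.9, 98.2 and 85.4 CPM in the Stag2WT libraries (log2 fold change -0.29, SE 0.08, adjusted p = 0.0388). Psma6 measured 153, 149 and 145 CPM in the Stag2KO libraries and 166, 188 and 167 CPM in the Stag2WT libraries (log2 fold change -0.22, SE 0.07, adjusted p = 0.0470). In both, the groups did not overlap and Stag2WT replicate 2 was the highest library. None of these 3 falls held in every fit without 1 library, with adjusted p up to 0.0912 for Psma7, 0.116 for Psma5 and 0.152 for Psma6. Psma6 also lost its call with no low-count filter (adjusted p = 0.0513) and with limma-voom (adjusted p = 0.0525). Psma1 (-0.14, adjusted p = 0.178), Psma2 (-0.21, adjusted p = 0.0642) and Psma3 (-0.16, adjusted p = 0.117) had groups that did not overlap and were not called, and Psma4 (-0.09, adjusted p = 0.344) overlapped between groups. Psma8, which replaces Psma7 in the proteasome of male germ cells, averaged 4.30 ± 1.40 CPM in Stag2KO and 5.51 ± 0.517 CPM in Stag2WT (SD, n = 3 each), with a log2 fold change of -0.36 (SE 0.24) that was not called.

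Of the 7 standard beta ring genes 3 fell and 4 were not called, where 10.5% of all tested genes fell. In all 7 every Stag2KO value lay below every Stag2WT value, against 21.2% of all tested genes. Psmb4, a structural subunit gene, measured 154, 143 and 143 CPM in the Stag2KO libraries and 175, 204 and 173 CPM in the Stag2WT libraries and fell (log2 fold change -0.33, SE 0.08, adjusted p = 0.0226). Its call was lost without Stag2KO replicate 2 or 3, with an adjusted p up to 0.0754. Psmb7, which encodes the subunit with trypsin-like activity, measured 113, 104 and 107 CPM in the Stag2KO libraries and 124, 145 and 126 CPM in the Stag2WT libraries (log2 fold change -0.28, SE 0.08, adjusted p = 0.0319). Psmb6, which encodes the caspase-like subunit, measured 109, 105 and 107 CPM in the Stag2KO libraries and 118, 137 and 122 CPM in the Stag2WT libraries (log2 fold change -0.23, SE 0.07, adjusted p = 0.0480). In both genes Stag2WT replicate 2 stood clear of the other libraries at the high end, while the 3 Stag2KO libraries lay close together. Psmb7 lost its call in 4 of the 6 fits without 1 library (adjusted p up to 0.0985), and Psmb6 in 5 of them (adjusted p up to 0.130) and with limma-voom (adjusted p = 0.0572). Psmb5, which encodes the chymotrypsin-like subunit that bortezomib inhibits, measured 26.4, 32.3 and 26.1 CPM in the Stag2KO libraries and 33.1, 37.9 and 36.0 CPM in the Stag2WT libraries. This was the largest fold change of the ring, with Stag2KO replicate 2 near the lowest Stag2WT library, and it was not called (log2 fold change -0.34, SE 0.11, adjusted p = 0.0539). Psmb5 was called without Stag2KO replicate 2 (adjusted p = 0.0274). With all 6 libraries it was called with no low-count filter (adjusted p = 0.0411) and with DESeq2 (adjusted p = 0.0254). The structural genes Psmb1 (-0.20, adjusted p = 0.110), Psmb2 (-0.17, adjusted p = 0.147) and Psmb3 (-0.22, adjusted p = 0.0706) were not called. Under the annotation of GRCm38, 34.9% of the exon bases of Psmb7 overlap Nek6 on the opposite strand. The sources used here give no strand setting for the counting, so reads in such overlaps cannot be assigned with certainty.

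The base ATPase genes, which encode the unfolding motor, had the largest share of calls among the classes. Of 6 genes 4 fell and 2 were not called, where 10.5% of all tested genes fell. All 6 had Stag2KO values entirely below the Stag2WT values, against 21.2% of all tested genes. Their log2 fold changes ran from -0.36 to -0.23, and without 1 library 1 to 3 of them fell. Psmc5 measured 101, 99.3 and 97.2 CPM in the Stag2KO libraries and 120.1, 139.5 and 123 CPM in the Stag2WT libraries and fell (log2 fold change -0.36, SE 0.07, adjusted p = 0.0101). Its 3 Stag2KO values span a narrow range well under the lowest Stag2WT value, and the call held in all 6 fits without 1 library, with adjusted p from 0.0157 to 0.0394. Psmc2 measured 136, 138 and 134 CPM in the Stag2KO libraries and 164, 191 and 153 CPM in the Stag2WT libraries (log2 fold change -0.31, SE 0.08, adjusted p = 0.0315), with its lowest Stag2WT value in replicate 3. Psmc3 measured 187, 172 and 175 CPM in the Stag2KO libraries and 206, 242 and 204 CPM in the Stag2WT libraries (log2 fold change -0.29, SE 0.08, adjusted p = 0.0363). Psmc1 measured 133, 136 and 127 CPM in the Stag2KO libraries and 149.5, 171 and 153 CPM in the Stag2WT libraries (log2 fold change -0.26, SE 0.07, adjusted p = 0.0342). Each of these 3 genes was highest in Stag2WT replicate 2, and each lost its call in 4 or 5 of the 6 fits without 1 library. Psmc4 (-0.23, adjusted p = 0.0880) and Psmc6 (-0.24, adjusted p = 0.0558) were not called. Psmc6 was called with no low-count filter (adjusted p = 0.0470) and with DESeq2 (adjusted p = 0.0331).

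Among the 11 non-ATPase genes 4 fell, 0 rose and 7 were not called, where 10.5% of all tested genes fell. Psmd6, a lid gene, measured 94.7, 106 and 96.7 CPM in the Stag2KO libraries and 123, 137 and 116 CPM in the Stag2WT libraries and fell (log2 fold change -0.34, SE 0.08, adjusted p = 0.0199), with all Stag2KO libraries under the lowest Stag2WT library; the call was lost without Stag2KO replicate 1 or 3 (adjusted p up to 0.0654). Psmd7, whose product pairs with the deubiquitinase of the lid, measured 155, 161 and 158 CPM in the Stag2KO libraries and 182, 210.5 and 179 CPM in the Stag2WT libraries (log2 fold change -0.27, SE 0.07, adjusted p = 0.0367). Psmd4, a ubiquitin receptor gene, measured 123, 120.3 and 116 CPM in the Stag2KO libraries and 137, 159.7 and 136 CPM in the Stag2WT libraries (log2 fold change -0.27, SE 0.08, adjusted p = 0.0393). Psmd7 and Psmd4 had groups that did not overlap and were highest in Stag2WT replicate 2; Psmd7 kept its call in 2 and Psmd4 in 1 of the 6 fits without 1 library. Psmd2, a scaffold gene of the base and the most abundant of the class by CPM, measured 278, 267 and 267 CPM in the Stag2KO libraries and 302, 336 and 307 CPM in the Stag2WT libraries (log2 fold change -0.22, SE 0.06, adjusted p = 0.0455), and its call was lost with no low-count filter (adjusted p = 0.0593) and in all 6 fits without 1 library (adjusted p 0.0601 to 0.149). Psmd14, the gene of the lid's deubiquitinase, measured 129, 127 and 132 CPM in the Stag2KO libraries and 140.5, 158 and 144 CPM in the Stag2WT libraries and was not called (log2 fold change -0.19, SE 0.06, adjusted p = 0.0657) although the groups did not overlap. Psmd11 (-0.23, adjusted p = 0.0543), Psmd12 (-0.23, adjusted p = 0.0733) and Psmd13 (-0.16, adjusted p = 0.118) also did not overlap and were not called. The scaffold gene Psmd1 (-0.13, adjusted p = 0.238) and the lid genes Psmd3 (-0.09, adjusted p = 0.313) and Psmd8 (-0.11, adjusted p = 0.282) overlapped between the groups and were not called.

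Of the immunoproteasome genes 0 of 3 were called. At an unadjusted p under 0.05 the edgeR test passed 1 of them, and DESeq2 and limma-voom called 0. Psmb10 measured 67.5, 63.9 and 71.3 CPM in the Stag2KO libraries and 61.3, 59.6 and 59.8 CPM in the Stag2WT libraries. All Stag2KO values lay above all Stag2WT values, and the difference was not called (log2 fold change 0.17, SE 0.06, adjusted p = 0.0983). Psmb9 measured 68.3, 70.3 and 80.2 CPM in the Stag2KO libraries and 70.9, 59.1 and 66.9 CPM in the Stag2WT libraries, with Stag2KO replicate 3 highest, Stag2WT replicate 2 lowest and the other libraries mixed (log2 fold change 0.15, SE 0.09, adjusted p = 0.253). Psmb8 measured 81.4, 86.6 and 105 CPM in the Stag2KO libraries and 94.5, 84.9 and 105 CPM in the Stag2WT libraries, with groups that overlapped (log2 fold change -0.06, SE 0.11, adjusted p = 0.738). All 3 genes were highest in Stag2KO replicate 3, Psmb8 in a near tie with Stag2WT replicate 3. Under the annotation of GRCm38, 15.7% of the exon bases of Psmb9 overlap Tap1 on the opposite strand.

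**Figure D2:**
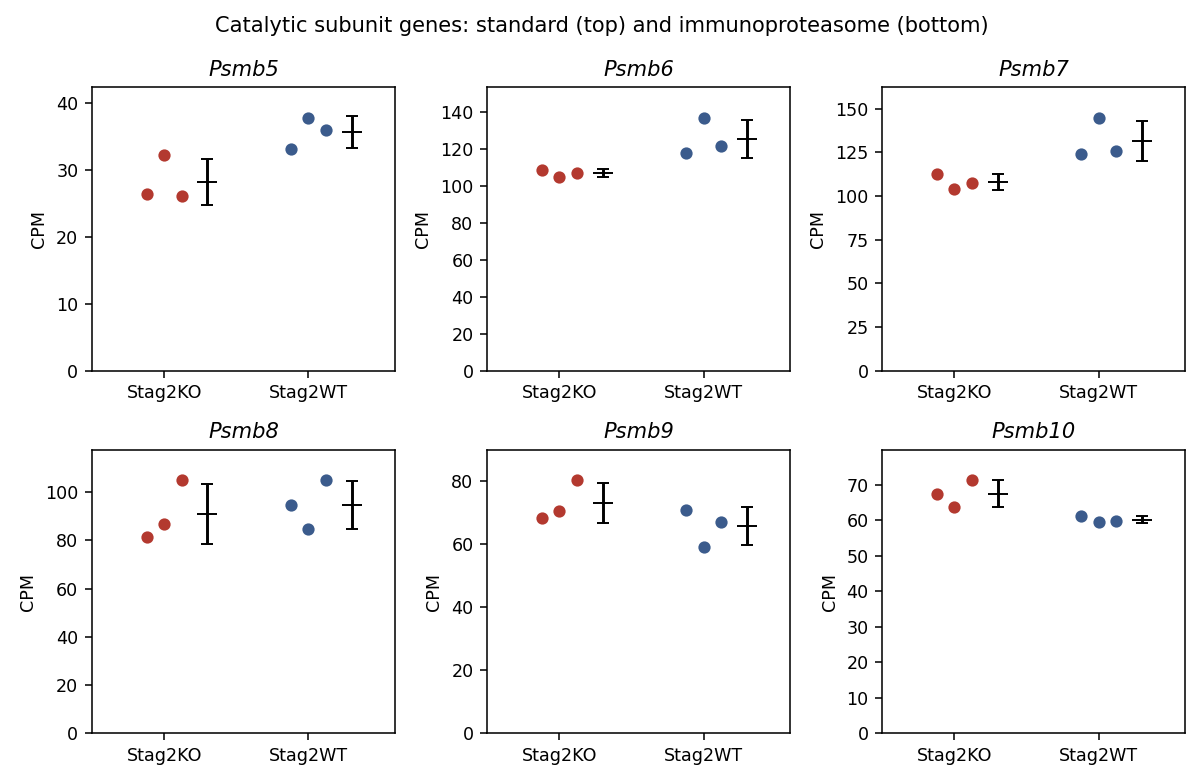
CPM of the standard catalytic genes Psmb5, Psmb6 and Psmb7 (top) and of their immunoproteasome counterparts Psmb8, Psmb9 and Psmb10 (bottom); points are libraries, Stag2KO in red and Stag2WT in blue, with mean and SD beside them. The groups separate in the top row with Stag2KO lower, overlap for Psmb8 and Psmb9, and separate with Stag2KO higher for Psmb10.

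Pairing each immunoproteasome gene with the standard gene that it replaces removes library size from the comparison. The log2 ratio of Psmb10 to Psmb7 reads was -0.74, -0.70 and -0.59 across the Stag2KO replicates and -1.02, -1.28 and -1.07 across the Stag2WT replicates. The groups did not overlap and differed by 0.45, a ratio 1.36-fold higher in Stag2KO (two-sided exact permutation p = 0.1, the smallest that 3 against 3 libraries allow). The log2 ratio of Psmb9 to Psmb6 was -0.67, -0.58 and -0.42 across the Stag2KO replicates and -0.73, -1.21 and -0.86 across the Stag2WT replicates, again without overlap and with a difference of 0.38 (exact p = 0.1). Without Stag2WT replicate 2 that difference was 0.24. The log2 ratio of Psmb8 to Psmb5 was 1.62, 1.42 and 2.01 across the Stag2KO replicates and 1.51, 1.16 and 1.54 across the Stag2WT replicates. Here the groups overlapped, and the difference of 0.28 was within the spread of the libraries (exact p = 0.4); it was 0.12 without Stag2KO replicate 3 and 0.16 without Stag2WT replicate 2. Adjusted over the 3 pairs, the p-values were 0.15, 0.15 and 0.4.

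**Figure D3:**
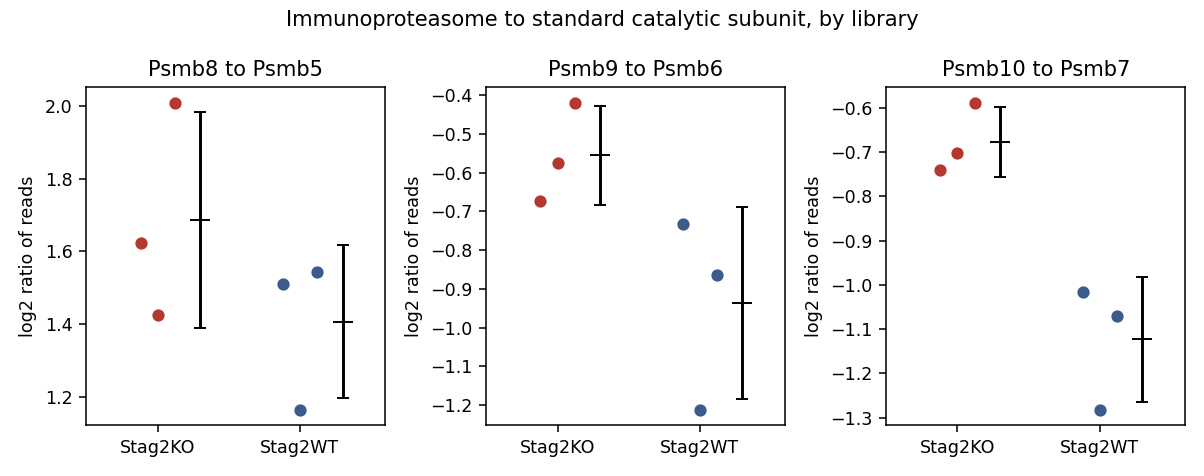
Log2 ratio of reads of each immunoproteasome gene to reads of the standard gene that it replaces, by library, with mean and SD beside the points. For Psmb9 to Psmb6 and Psmb10 to Psmb7 the 3 Stag2KO libraries lie above all 3 Stag2WT libraries, and for Psmb8 to Psmb5 the groups overlap.

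Of the 5 activator and inhibitor genes 0 were called by edgeR, 3 passed at an unadjusted p under 0.05, and DESeq2 called 1 and limma-voom 0. Psme1 and Psme2 encode the alternative cap induced by interferon gamma. Psme1 measured 164, 177 and 193 CPM in the Stag2KO libraries and 190.4, 185 and 185 CPM in the Stag2WT libraries (log2 fold change -0.07, SE 0.07, adjusted p = 0.498), and its groups overlapped. Psme2 measured 94.8, 101 and 115 CPM in the Stag2KO libraries and 119, 117 and 118 CPM in the Stag2WT libraries, with Stag2KO replicate 3 just under the lowest Stag2WT library (log2 fold change -0.18, SE 0.08, adjusted p = 0.121). The gene of the nuclear activator, Psme3, measured 233, 245 and 225 CPM in the Stag2KO libraries and 254, 269 and 262 CPM in the Stag2WT libraries (log2 fold change -0.16, SE 0.06, adjusted p = 0.0930) without overlap, and Psme4, whose product caps proteasomes that act on histones, was not called (log2 fold change -0.03, SE 0.06, adjusted p = 0.707). Psmf1, which encodes an inhibitor of the core particle, measured 61.7, 59.8 and 52.9 CPM in the Stag2KO libraries and 70.4, 89.3 and 65.9 CPM in the Stag2WT libraries (log2 fold change -0.37, SE 0.12, adjusted p = 0.0596). Its 3 highest values were those of the Stag2WT libraries, and it was called without Stag2WT replicate 3 (adjusted p = 0.0423). With all libraries it was called with no low-count filter (adjusted p = 0.0467) and with DESeq2 (adjusted p = 0.0224). The processed copy Psme2b-ps had 5.90 CPM in Stag2KO and 6.58 CPM in Stag2WT, and reads that fit both it and Psme2 may have been lost from either.

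Among the assembly chaperone genes, Psmd9 showed the largest fold change of all 49 tested genes. Its product helps to build the base. Psmd9 measured 41.7, 44.3 and 39.7 CPM in the Stag2KO libraries and 56.2, 79.8 and 51.4 CPM in the Stag2WT libraries and fell (log2 fold change -0.58, SE 0.16, adjusted p = 0.0429). Stag2WT replicate 2 was far above the other libraries, and without it the log2 fold change was -0.36 and the gene was still called. The call also held without Stag2WT replicate 3 and was lost without any of the other 4 libraries (adjusted p up to 0.119) and with no low-count filter. Psmd5, also a chaperone gene of the base, was not called (-0.22, adjusted p = 0.103), nor was Psmd10, which encodes gankyrin (-0.10, adjusted p = 0.441). The core chaperone gene Psmg2 measured 42.5, 40.7 and 37.0 CPM in the Stag2KO libraries and 45.9, 53.3 and 45.7 CPM in the Stag2WT libraries. Psmg3, another, measured 23.9, 23.6 and 24.7 CPM in the Stag2KO libraries and 27.3, 37.7 and 26.8 CPM in the Stag2WT libraries. For Psmg2 and Psmg3 the groups did not overlap and neither was called (-0.27, adjusted p = 0.0643 and -0.35, adjusted p = 0.0986). Psmg1 (-0.12, adjusted p = 0.435) and Psmg4 (-0.05, adjusted p = 0.773) overlapped between groups. In all, 1 of 7 fell and 6 were not called, where 10.5% of all tested genes fell. Outside the classes, Psmc3ip measured 17.6, 15.7 and 14.8 CPM in the Stag2KO libraries and 20.4, 25.3 and 19.4 CPM in the Stag2WT libraries and fell (log2 fold change -0.44, SE 0.13, adjusted p = 0.0432), a call that held in 1 of the 6 fits without 1 library, that without Stag2WT replicate 3, and was lost without robust dispersion (adjusted p = 0.0512); 29.8% of its exon bases overlap Mlx on the opposite strand.

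Summed over the 31 alpha ring, beta ring, base ATPase and non-ATPase genes other than Psma8, the level was 4167, 4108 and 4048 across the Stag2KO replicates and 4554, 5227 and 4592 across the Stag2WT replicates, in CPM. The mean sum was 4108 ± 59.4 CPM in Stag2KO and 4791 ± 378 CPM in Stag2WT (SD, n = 3 each), so Stag2KO held 85.7% of the Stag2WT level. Stag2WT replicate 2 was the highest of the 6 libraries for all 31 genes, and the lowest library was always a Stag2KO one. Median deviations from a gene's mean over the 6 libraries were -0.09, -0.11 and -0.13 across the Stag2KO replicates and 0.05, 0.25 and 0.06 across the Stag2WT replicates on the log2 scale, so the gap between Stag2WT replicate 2 and the other Stag2WT libraries was no narrower than the gap between those and the Stag2KO libraries. In 27 of the 31 genes all Stag2KO values were under the lowest Stag2WT value, against 21.2% of all tested genes. Without Stag2WT replicate 2 the median log2 fold change of the 31 genes was -0.16, against -0.23 with all libraries.

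**Figure D4:**
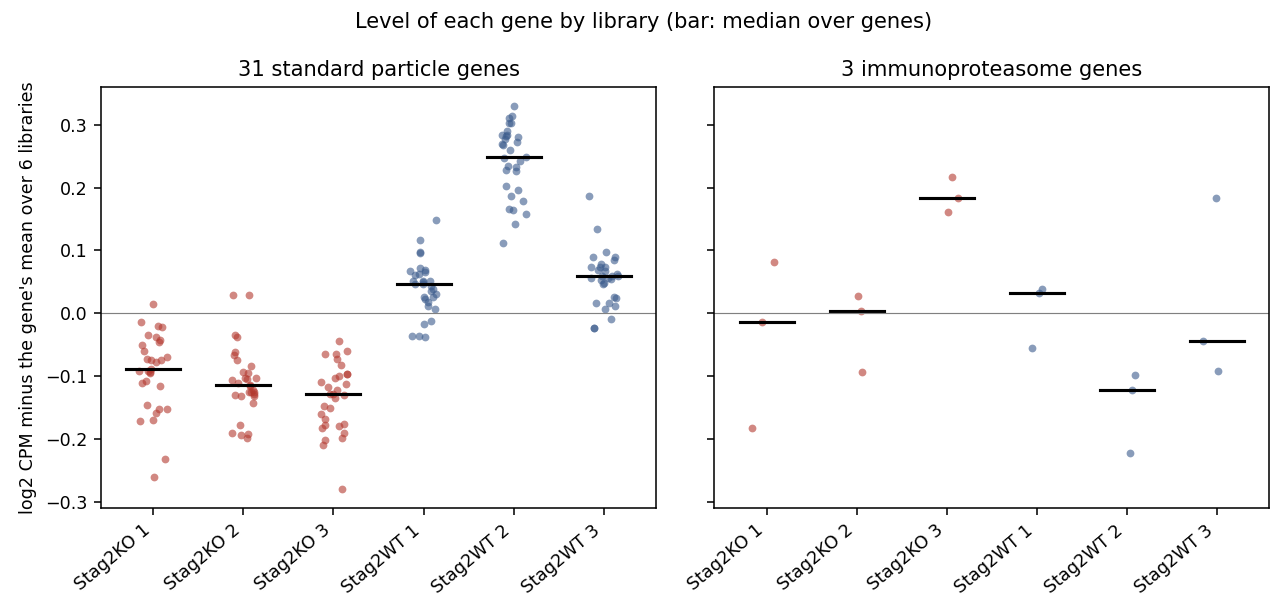
Log2 CPM of each gene minus its mean over the 6 libraries, for the 31 standard genes (left) and the 3 tested immunoproteasome genes (right); each point is a gene and bars are medians. On the left the Stag2KO medians lie at -0.09, -0.11 and -0.13 and Stag2WT replicate 2 stands highest at 0.25; on the right Stag2KO replicate 3 is highest and Stag2WT replicate 2 lowest.

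The base ATPase genes summed to 804 ± 18.2 CPM in Stag2KO and 978 ± 91.9 CPM in Stag2WT (SD, n = 3 each), or 82.3% of the Stag2WT level. The share was 83.0% for assembly chaperones, 84.3% for the beta ring, 87.2% for the non-ATPase genes, 87.5% for the alpha ring and 91.1% for activators and the inhibitor. The 3 immunoproteasome genes summed to 231 ± 21.7 CPM in Stag2KO and 221 ± 15.0 CPM in Stag2WT (SD, n = 3 each), which differ by less than the spread of the libraries.

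Levels can be set between genes only per length, here as mean CPM per kilobase of the longest coding transcript in the GRCm38 annotation. On this scale Psma7 was among the highest at 147 in Stag2KO and 176 in Stag2WT, and Psmb6 was at 134 in Stag2KO and 157 in Stag2WT. Psmb5 was the lowest of the standard beta genes at 31.4 in Stag2KO and 39.7 in Stag2WT, below its counterpart Psmb8 at 55.9 in Stag2KO and 58.2 in Stag2WT, whereas Psmb9 at 54.0 in Stag2KO and 48.5 in Stag2WT and Psmb10 at 51.5 in Stag2KO and 46.0 in Stag2WT lay below Psmb6 and Psmb7. In Stag2WT the 7 assembly chaperone genes were below every standard subunit gene except Psma8, from 20.4 for Psmd10 to 37.1 for Psmg2. These levels rest on lengths from another annotation than the counting used, and the transcript that is expressed may differ from the longest. In the GRCm38 annotation 12.1% of the exon bases of Psmb5 overlap Mir686 on the same strand. Reads there, or reads that also fit Psmb5-ps, may have been lost from Psmb5, which was not tested.

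Accessory proteins and further partners of the proteasome were read from lists chosen with earlier results of these data known. In the accessory list 2 of 15 tested genes fell, 1 rose and 12 were not called, with a median log2 fold change of -0.16. For this list and those that follow, the shares over all tested genes were 10.5% that fell and 10.7% that rose. Pomp, which encodes the maturation factor that brings in the beta ring, measured 93.2, 97.6 and 103 CPM in the Stag2KO libraries and 126, 139.6 and 123 CPM in the Stag2WT libraries and fell (log2 fold change -0.40, SE 0.07, adjusted p = 0.00734), with no overlap and a call that held in all 6 fits without 1 library. Txnl1, whose product is a redox protein attached to the regulatory particle, measured 134, 145 and 143 CPM in the Stag2KO libraries and 187, 220.2 and 171 CPM in the Stag2WT libraries and fell (log2 fold change -0.46, SE 0.09, adjusted p = 0.0136), likewise in all 6. Zfand5, encoding a proteasome activator with a zinc finger, rose to 107 ± 3.80 CPM in Stag2KO, against 88.2 ± 5.62 CPM in Stag2WT (SD, n = 3 each; log2 fold change 0.28, SE 0.07, adjusted p = 0.0212). Leaving out Stag2KO replicate 1 or 2 or Stag2WT replicate 3 ended that call (adjusted p from 0.0556 to 0.0653). Fbxo7, encoding an F-box protein that binds the Psmf1 product, was not called (-0.37, adjusted p = 0.0713).

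Nfe2l1, the gene of the factor that drives proteasome genes when the particle is inhibited, averaged 107 ± 3.15 CPM in Stag2KO and 104 ± 6.02 CPM in Stag2WT (SD, n = 3 each) and was not called (log2 fold change 0.04, SE 0.06, adjusted p = 0.680). Its relative Nfe2l2 was not called either (0.10, adjusted p = 0.293). Both were named after their values were seen. Ddi2, the gene of the protease that frees the Nfe2l1 protein for the nucleus, measured 122, 134 and 138 CPM in the Stag2KO libraries and 159.9, 157 and 172 CPM in the Stag2WT libraries and fell (log2 fold change -0.31, SE 0.07, adjusted p = 0.0189). Leaving out Stag2KO replicate 1 or Stag2WT replicate 3 ended the call (adjusted p of 0.0641 and 0.0531). Mafg, the gene of a small MAF partner, measured 180.0, 161 and 167 CPM in the Stag2KO libraries and 129, 122 and 130.0 CPM in the Stag2WT libraries and rose (log2 fold change 0.42, SE 0.06, adjusted p = 0.00429), in all 6 fits without 1 library. Hmox1, a heme oxygenase gene that Nfe2l2 activates and macrophages express, fell to 104 ± 35.2 CPM in Stag2KO, against 255 ± 35.3 CPM in Stag2WT (SD, n = 3 each; log2 fold change -1.29, SE 0.25, adjusted p = 0.0213). Leaving out Stag2KO replicate 3 or Stag2WT replicate 1 or 2 ended that call (adjusted p from 0.0531 to 0.0788), as did dropping the low-count filter (adjusted p = 0.0627). Txnrd1, a thioredoxin reductase gene, rose (0.26, adjusted p = 0.0272), and the call held only without Stag2WT replicate 3. Of the 17 genes on this list of factors and their targets 4 fell, 2 rose and 11 were not called; Gclm (-0.33, adjusted p = 0.0442) and Ngly1 (-0.27, adjusted p = 0.0476), which complete the falls, were named after their values were seen and held in 1 of the 6 fits each.

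Of 15 ubiquitin supply and shuttle genes edgeR called 0, 8 had Stag2KO values entirely under the Stag2WT values (against 21.2% of all tested genes), and the median log2 fold change was -0.13. Ubqln1, the gene of a protein that ferries tagged proteins to the particle, measured 154, 154 and 151 CPM in the Stag2KO libraries and 164, 195 and 173 CPM in the Stag2WT libraries (log2 fold change -0.21, SE 0.07, adjusted p = 0.0718). The conjugating enzyme gene Ube2n was not called either (-0.21, adjusted p = 0.0840). At an unadjusted p under 0.05, 5 of the 15 passed, and DESeq2 called 1 and limma-voom 0.

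Peptide presentation genes, which share the interferon response with Psmb8, Psmb9 and Psmb10, had a median log2 fold change of 0.15. The transporter gene Tap2, next to Psmb8, measured 86.1, 85.2 and 83.9 CPM in the Stag2KO libraries and 76.5, 67.0 and 76.9 CPM in the Stag2WT libraries, with all Stag2KO values above all Stag2WT values, and was not called (log2 fold change 0.21, SE 0.07, adjusted p = 0.0624). Tapbpl, the gene of a peptide editor, was not called (0.23, adjusted p = 0.0813), nor was the trimming enzyme gene Erap1 (0.20, adjusted p = 0.127). Canx, a chaperone gene of the endoplasmic reticulum, was the 1 gene of 12 that was called, and it fell (-0.28, adjusted p = 0.0388), a call that held only without Stag2WT replicate 1. In the interferon list 1 of 22 genes rose, 0 fell and 21 were not called. Gbp2, an interferon-induced GTPase gene, rose to 31.7 ± 9.32 CPM in Stag2KO, against 16.2 ± 3.63 CPM in Stag2WT (SD, n = 3 each; log2 fold change 0.97, SE 0.27, adjusted p = 0.0461), a call that held in 1 of the 6 fits without 1 library, that without Stag2KO replicate 1, and was lost with no low-count filter (adjusted p = 0.105). Irf1, the gene of a factor that activates Psmb9 and Tap1, measured 90.7, 90.0 and 112 CPM in the Stag2KO libraries and 82.5, 71.6 and 86.6 CPM in the Stag2WT libraries and was not called (log2 fold change 0.28, SE 0.11, adjusted p = 0.0907), nor were Irf9 (-0.34, adjusted p = 0.0778) and Gbp7 (0.35, adjusted p = 0.122). The summed interferon list was 841, 1102 and 1337 CPM across the Stag2KO replicates and 1300.4, 917 and 1151 CPM across the Stag2WT replicates. It was highest in Stag2KO replicate 3, where the 3 immunoproteasome genes were also highest, with Stag2WT replicate 1 close behind. Single genes of the list differed. Irf8, the largest part of the sum, was highest in Stag2WT replicate 3 (461 CPM). Irf9, Ifit1, Isg15, Mx1 and Rsad2 were highest in Stag2WT replicate 1, and Irf1, Gbp3, Gbp7 and Irgm1 in Stag2KO replicate 3. A link to the immunoproteasome genes was not tested.

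**Figure D5:**
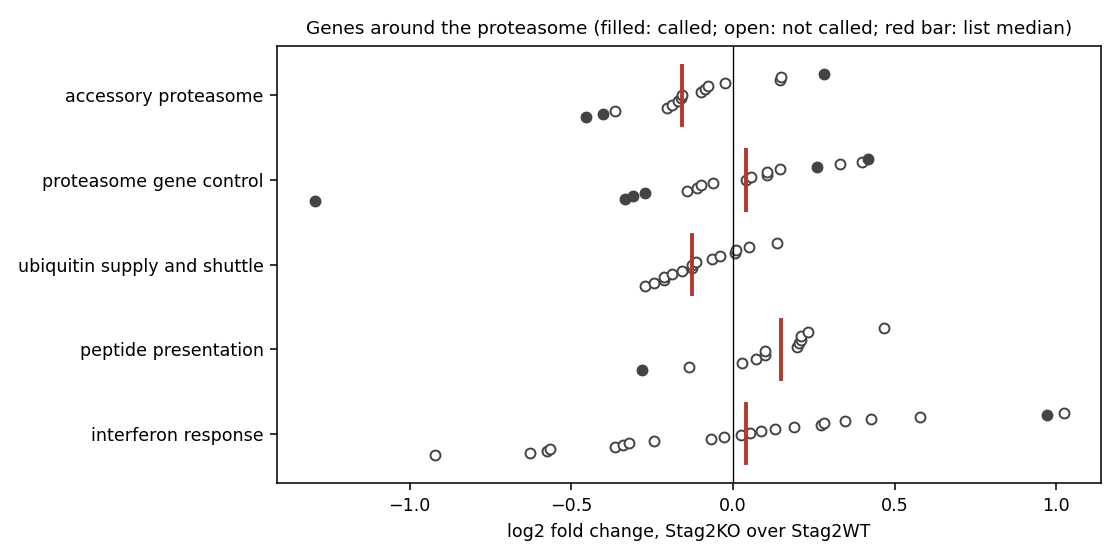
Log2 fold change of Stag2KO over Stag2WT for each tested gene of the 5 related lists; filled points were called, open points were not, and red bars are list medians. The ubiquitin and accessory medians lie left of 0 at -0.13 and -0.16, and the presentation median lies right of it at 0.15.

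Markers of several cell types differed between the groups as well. Of 10 erythroid markers 3 fell (Klf1, Epor and Tfrc, named after their values were seen), 0 rose and 7 were not called. The count was 0 without any 1 of the Stag2KO libraries or Stag2WT replicate 1, 2 without Stag2WT replicate 2, 5 without Stag2WT replicate 3, 1 with no low-count filter and 5 with DESeq2. The summed level of the erythroid markers was 2344, 2298 and 1828 CPM across the Stag2KO replicates and 2723, 3470.3 and 2048 CPM across the Stag2WT replicates. Stag2WT replicate 2, highest for all 31 standard proteasome genes, was thus also the highest in this sum, though Hbb-b1 and Alas2 were highest in Stag2WT replicate 1. The order of the other libraries differed. Stag2WT replicate 3 was below Stag2KO replicates 1 and 2 in the erythroid sum. In the sum of the 31 proteasome genes it was above them (4592 CPM against 4167 and 4108 CPM). Of 13 macrophage markers 11 fell and 0 rose, with sums of 427, 332 and 482 CPM across the Stag2KO replicates and 1334, 1213 and 1313 CPM across the Stag2WT replicates. All 10 B cell markers fell, with sums of 116, 101 and 115 CPM across the Stag2KO replicates and 374, 294 and 245 CPM across the Stag2WT replicates. In these mature lineages every Stag2KO library was below every Stag2WT library. Of 12 stem and progenitor markers 7 rose and 0 fell, with sums of 16045, 13659 and 15672 CPM across the Stag2KO replicates and 9638, 10747 and 11645 CPM across the Stag2WT replicates. Leaving out Stag2KO replicate 3 cut the count of 7 to 2, as did leaving out either of Stag2WT replicates 1 and 2, and leaving out Stag2KO replicate 1 cut it to 4. All 6 eosinophil markers rose, with sums of 5686, 3680.0 and 3800.0 CPM across the Stag2KO replicates and 1600.2, 1484 and 1055 CPM across the Stag2WT replicates. For stem and progenitor and for eosinophil markers every Stag2KO library was above every Stag2WT library. Of 9 dendritic cell markers 2 fell and 0 rose, with sums from 358 to 734 CPM in Stag2KO and 571 to 896 CPM in Stag2WT. Of 8 T cell markers 3 fell and 0 rose, with sums of 37.2 to 83.2 CPM in Stag2KO and 53.9 to 106 CPM in Stag2WT. Without 1 library the macrophage, B cell and eosinophil counts stayed at 11, 10 and 6, while the dendritic cell count ran from 1 to 3 and the T cell count from 2 to 3. These counts without a library were added after the data were seen. No marker on these lists was at 0. The part of these cell types in the proteasome values was not tested.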

How the data were processed

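RNA from lineage-depleted mouse bone marrow was sequenced in 3 Stag2KO and 3 Stag2WT samples. The authors deposited raw read counts per gene symbol with no normalization; per the submitters' processing notes, the tools were HTSeq 0.6.1, STAR 2.4 and DESeq2, on build mm9. The sources used here do not give the library kit for these samples, the annotation or the strand setting. Groups follow the genotype label, and replicate numbers follow accession order, so they pair nothing. Counter totals naming no gene stayed out of library sizes and tests (8.81% to 12.8% of table reads in no gene, 2.02% to 2.2% ambiguous, 23.4% to 28.6% not unique). Replicates differed beyond sampling noise (chi-square per degree of freedom 22.6 to 47.1) and all were kept.

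The test on counts was that of edgeR 4.0.16 under R 4.3.3 (TMM, filterByExpr, robust quasi-likelihood fit on genotype, Benjamini-Hochberg over 15708 genes, threshold 0.05), after tests on simulated data. A standard error is the log2 fold change over the square root of its F statistic. Ratios were compared by two-sided exact permutation. Alternatives were RLE size factors, other filters, DESeq2 1.42.0, limma-voom of limma 3.58.1, no robust dispersion, each library left out, and a prior count of 10 reads in ratios.

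The members and lists were chosen with earlier results of these data known. Named were all members, and up to 4 genes with the smallest p of each related list, of which some are left out here; markers are given by count and sum. Sequences are from RefSeq on GRCm38.p6, and lengths, neighbours and overlaps from GENCODE vM21 on GRCm38; no coordinates are given on the counting build.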

Additional observations from a re-analysis of the deposited data

Results flagged for a closer look

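Reads in no annotated gene, which enter no test above, made up 11.7% of the Stag2KO libraries on average and 9.24% of the Stag2WT libraries, with every Stag2KO library above every Stag2WT library. Groups of 3 libraries are too small for a search for single libraries that stand apart.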

How the results depend on the processing

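The 16 falls became 16 with RLE size factors, 16 with no low-count filter (13 of them shared), 16 with a CPM of at least 5 in 3 libraries, 22 with DESeq2, 14 with limma-voom and 15 without robust dispersion, with 0 rises in each. DESeq2 added Psma2, Psmb5, Psmc6, Psmd11, Psmf1 and Psmg2, and the fit with no low-count filter added Psmb5, Psmc6 and Psmf1. Over all genes, 1699 of 15708 fell with RLE size factors, 1691 of 23812 with no low-count filter and 1239 of 10889 with the CPM filter. Of 15708 genes, 2045 fell with DESeq2, 1569 with limma-voom and 1615 without robust dispersion. Without 1 library there were 1 to 11 falls and 0 rises, by class 0 to 2 in the alpha ring, 0 to 3 in the beta ring, 1 to 3 in the base ATPases, 0 to 3 in the non-ATPase genes, 0 to 1 among activators and the inhibitor and 0 to 1 among chaperones. Activator and inhibitor falls went to 1 (Psmf1) with no low-count filter and 1 with DESeq2, and chaperone falls to 0 with no low-count filter and 2 with DESeq2; the cause was not tested. The log2 ratio differences ran from 0.12 to 0.41 for Psmb8 to Psmb5, 0.24 to 0.48 for Psmb9 to Psmb6 and 0.37 to 0.50 for Psmb10 to Psmb7 without 1 library. Fold changes near 0 reversed for Psmb8 (-0.06 in the report; -0.17 to 0.02 without 1 library, 0.016 without Stag2KO replicate 1 and 0.019 without Stag2WT replicate 3), Psme2b-ps (-0.39 to 0.074, the upper value without Stag2KO replicate 1), Psmg1 (-0.17 to 0.000195) and Psmg4 (-0.11 to 0.0023), the upper values of Psmg1 and Psmg4 being those without Stag2WT replicate 2. Over single genes, 707 of the alternative values kept direction and call, 97 lost a call and 19 gained one. No paired analysis was possible because the labels give the samples codes and no replicate numbers shared between groups. Of the 49 tested genes 48 lay above 5 CPM on average in both groups, and depth limits mainly Psma8 and Psme2b-ps.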
